A study of Homo sapiens with 6 samples.

Results

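Uveal melanoma arises from the melanocytes of the eye and is sorted for prognosis by gene expression into class 1, which seldom spreads, and class 2, which often does. The 10 genes described here belong to the 12-gene classifier used for that purpose and were taken by name, whatever their values. HTR2B, ECM1 and RAB31 are higher in class 2 tumours, and FXR1, ID2, LMCD1, LTA4H, MTUS1, ROBO1 and SATB1 are lower there. All 10 were found among the 12010 genes that could be named. CDH1, the other classifier gene that is higher in class 2, was not analysed here, and EIF1B, the other lower one, is given further on with the control genes.

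The cells were 92.1, an established line grown from a human uveal melanoma. Of the 6 RNA sequencing samples, 3 were given 0.1 µM LBH589 (panobinostat) and 3 the solvent DMSO, each for 24 h. LBH589 blocks histone deacetylases, which take acetyl groups off histones and other proteins. Levels are FPKM, fragments per transcript length and library size, added up per gene. Both groups come from 1 cell line, and the labels do not say that the samples were separate cultures. The p-values here set the gap between the groups against the spread of these samples only, and that spread may be technical.

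The classifier reads tumour state and not a pathway, so its genes have unlike roles. HTR2B is a serotonin receptor that couples to Gq proteins, the arm of signalling that mutations in uveal melanoma switch on. ECM1 is a secreted matrix protein and RAB31 a small GTPase of the endosome and Golgi. Among the genes lower in class 2, ID2 holds back basic helix-loop-helix factors, SATB1 organises chromatin, LMCD1 is a LIM domain cofactor of transcription, and FXR1 binds RNA. ROBO1 is a receptor of SLIT guidance cues, LTA4H makes leukotriene B4, and MTUS1 is a microtubule-associated protein.

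Summed FPKM of named genes lay between 396753 and 422160 in the DMSO libraries and between 354643 and 366705 in the LBH589 libraries (exact two-sided permutation p = 0.1, the smallest that 3 against 3 allows), and absolute depth is unknown because the files hold no counts. All 10 melanocyte markers had values, with sums of 2662 to 2778 FPKM in DMSO and 726 to 779 FPKM in LBH589, and 8 of the 10 fell. Of 4 endothelial markers 0 had values here, and of 6 immune markers only CD68 did, at 11.6 to 16.8 FPKM in DMSO and 6.69 to 12.4 FPKM in LBH589. COL1A1 and LUM, the 2 of 6 fibroblast markers with values, summed to 1.47 to 2.52 FPKM in DMSO and 4.23 to 5.55 FPKM in LBH589, and both rose. The 3 of 6 epithelial markers with values summed to 5.52 to 8.57 FPKM and then 8.92 to 11.8 FPKM. The part of these shifts in the results was not tested, and in bulk RNA fewer cells of a kind and less RNA per cell cannot be told apart.

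Of the 10 genes, 6 passed the test of LBH589 against DMSO: ECM1, ID2, LMCD1 and ROBO1 rose, and HTR2B and SATB1 fell. RAB31, FXR1, LTA4H and MTUS1 did not pass. The test was limma on log2(FPKM + 1), adjusted by Benjamini-Hochberg over 11520 genes with a threshold of 0.05, and every change below is the difference of mean log2(FPKM + 1), LBH589 minus DMSO. The count has to be read against a background in which 48.8% of all tested genes passed, 27.2% upward and 21.6% downward. Changes that passed and were at least 2-fold on this scale were seen in 5 of the 10 genes, against 23.9% of all tested genes. Rises of that size were seen in 4 of the 10 genes, against 13.2% of all tested genes. The libraries of the groups did not overlap in 7 of the 10 genes, against 59.5% of all tested genes. HTR2B and ECM1 each have a mean under 0.5 FPKM in one group, and they were measured here only through the group in which they are high.

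Set beside the direction known from tumours, 4 of the 6 changes ran opposite to class 2: HTR2B fell, and ID2, LMCD1 and ROBO1 rose. The rise of ECM1 and the fall of SATB1 ran the same way as in class 2. The call of SATB1 ended in 9 of 15 alternatives. Of the 3 genes higher in class 2, 1 rose and 1 fell, and of the 7 lower ones 3 rose and 1 fell. Over all tested genes 27.2% rose and 21.6% fell. With so few genes the tally does not measure a turn away from the class 2 profile. The median change was -0.42 over the 3 genes higher in class 2 and 0.17 over the 7 lower ones, against 0.08 over all genes tested. These medians are the values of RAB31 and LTA4H, which did not pass, so they show no direction for either set.

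**Figure D1:**
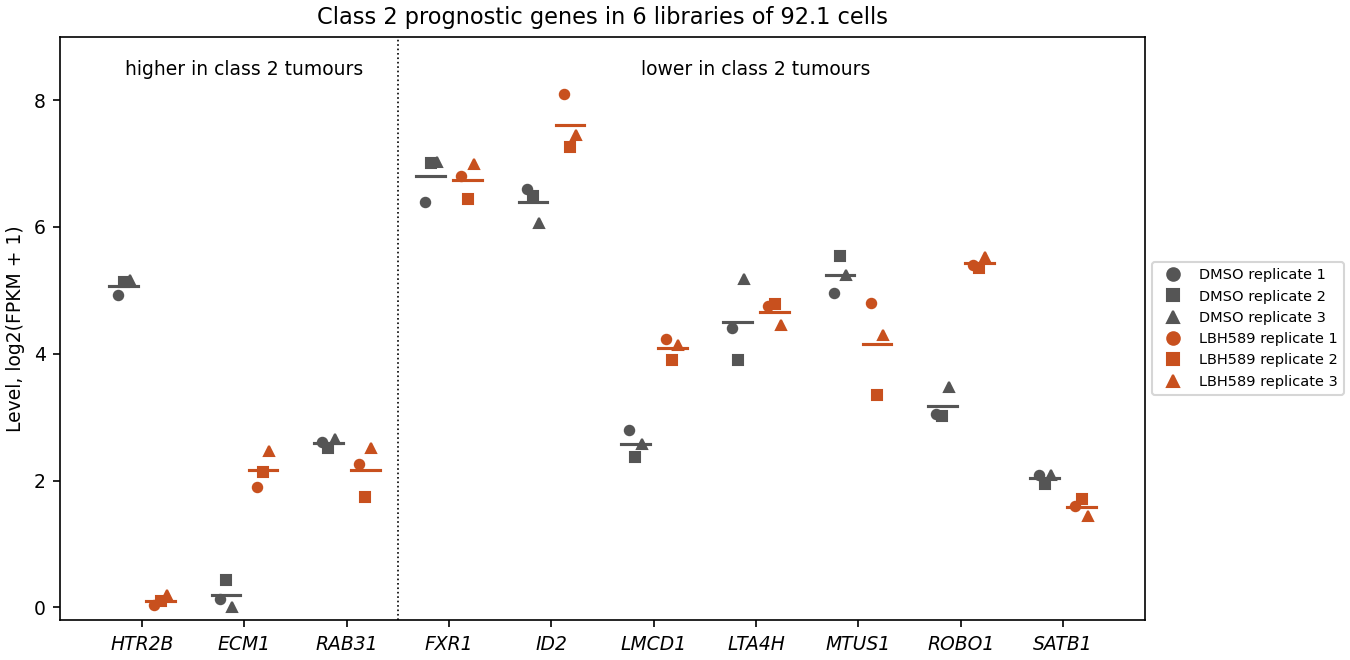
Level of each gene in each library, as log2(FPKM + 1), in DMSO (grey) and LBH589 (orange), with horizontal bars at the group means (n = 3 each). The groups lie farthest apart in HTR2B, and those of RAB31, FXR1 and LTA4H overlap.

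HTR2B made the largest move of the 10 in the sums per gene. With the most abundant transcript alone, that of ID2 was larger in size (5.55 against -4.96). The transcript used for ID2 there, ID2-201, made up 11.8% of the ID2 level in DMSO and 73.5% in LBH589. HTR2B stood at 29.5, 34.0 and 34.7 FPKM in DMSO replicates 1, 2 and 3, against 0.0253, 0.0698 and 0.143 FPKM in the LBH589 replicates. Every LBH589 library was thus close to 0, and the DMSO libraries lay near each other. The change was -4.96 (SE 0.13, 95% interval -5.27 to -4.66, adjusted p = 1.11e-05), and -7.56 with 0.1 in place of 1 FPKM added before the logarithm. Ordered by group mean among all 12010 genes, HTR2B went from percentile 87.8 in DMSO to percentile 0.649 in LBH589. Its value rests on 1 listed transcript, HTR2B-201. In GENCODE 29 its exons share 559 bases with those of PSMD1, a proteasome subunit gene on the other strand. PSMD1 stood at 43.4, 41.5 and 41.1 FPKM under DMSO and 43.4, 46.4 and 48.3 FPKM under LBH589 (adjusted p = 0.263), and it passed, upward, with library sums made equal (adjusted p = 0.0418). Of 14 other serotonin receptor genes looked for, 0 had values here.

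The called genes whose pattern over the 6 libraries was most like that of HTR2B were MLANA, NEIL3 and NCAPG, with Pearson correlations of 0.9999, 0.9996 and 0.9994 on log2(FPKM + 1). MLANA, a melanosomal protein, had a level of 244 ± 12.9 FPKM in DMSO and 16.7 ± 0.682 FPKM in LBH589 (SD, n = 3). NEIL3, a DNA glycosylase, had 7.63 ± 0.469 and 0.414 ± 0.0883 FPKM, and NCAPG, a condensin subunit, 17.9 ± 1.35 and 2.11 ± 0.0333 FPKM. NEIL3 has a mean under 0.5 FPKM in LBH589 and reached the level tested only through DMSO. With 3 libraries on either side such correlations mostly restate the gap between the groups, and 320 called genes with a higher group mean of at least 5 FPKM exceeded 0.99.

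ECM1 moved the other way, from near 0 to a low level. Under DMSO it stood at 0.0983 and 0.351 FPKM in replicates 1 and 2 and was listed at 0 in replicate 3, and under LBH589 it reached 2.73, 3.41 and 4.51 FPKM. All LBH589 libraries lay above all DMSO libraries. The change was 1.98 (SE 0.20, 95% interval 1.496 to 2.46, adjusted p = 4.94e-04), a value that understates the difference because the DMSO levels are small beside the added 1 FPKM. With 0.1 FPKM added it was 4.11. ECM1 stayed a low gene, at percentile 4.75 of the listed genes in DMSO and 35.5 in LBH589.

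RAB31 did not pass. Its libraries read 5.12, 4.71 and 5.30 FPKM for DMSO and 3.80, 2.35 and 4.71 FPKM for LBH589, where replicate 3 reached the lowest DMSO library. The change of -0.42 had a 95% interval of -0.94 to 0.10 (adjusted p = 0.158), so these data hold both a fall of that lower bound and no fall.

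**Figure D2:**
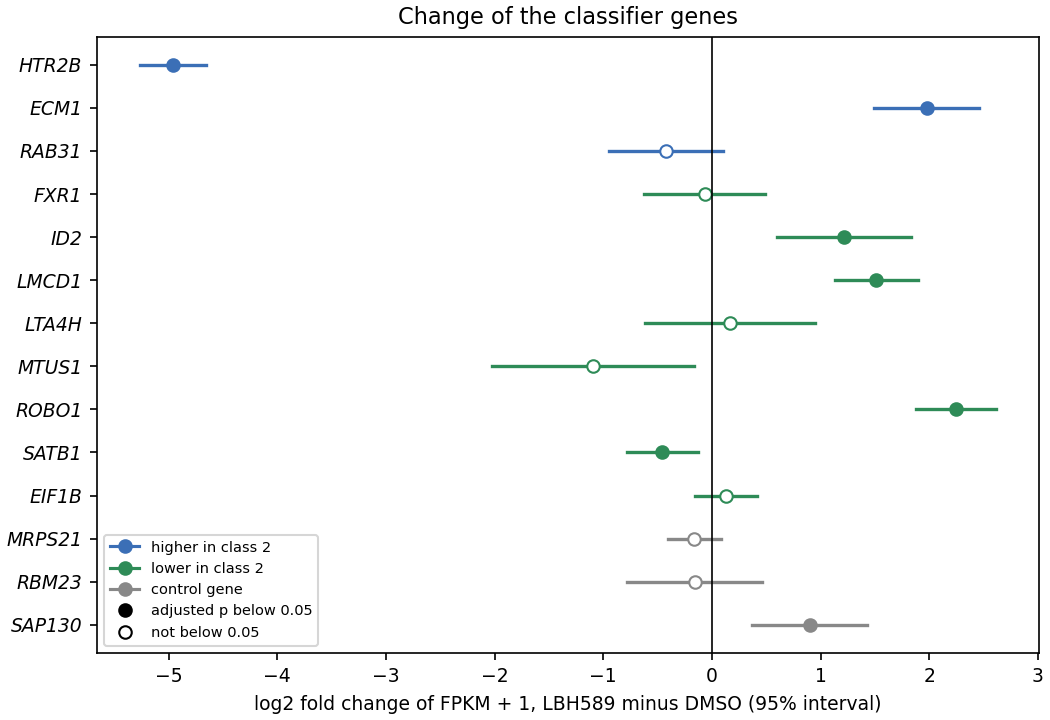
Change in log2(FPKM + 1), LBH589 minus DMSO, for the 10 genes, EIF1B and the 3 control genes of the classifier. Lines are 95% intervals from limma, filled points passed at adjusted p below 0.05 and open points did not, and colours give the direction known from class 2 tumours. HTR2B lies at -4.96 and ROBO1 at 2.25.

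ROBO1 had the largest rise of the 10 genes in the sums per gene with 1 FPKM added. ECM1 had a larger one with 0.1 FPKM added, and ID2 with the most abundant transcript alone. ROBO1 went from 7.26, 7.10 and 10.1 FPKM in the DMSO replicates to 41.1, 39.9 and 45.3 FPKM in the LBH589 replicates, a ratio of means of 5.15. The groups did not overlap, and the change was 2.25 (SE 0.15, 95% interval 1.88 to 2.62, adjusted p = 1.16e-04). Of its listed transcripts, ROBO1-209 rose from 1.22, 1.91 and 7.10 FPKM to 22.4, 22.8 and 34.1 FPKM (limma over single transcripts, adjusted p = 0.0202), a test that 15.9% of all transcripts passed. ROBO1-212 rose from 1.42, 1.49 and 1.19 FPKM to 7.01, 7.83 and 7.56 FPKM (adjusted p = 0.00234). ROBO1-204, with 4.18, 3.70 and 1.44 FPKM and then 11.0, 8.57 and 2.95 FPKM, did not pass (adjusted p = 0.285). These 3 transcripts have starts close together, 444 and 915 bases from that of ROBO1-212.

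LMCD1 rose in all LBH589 libraries, to 17.8, 13.96 and 16.7 FPKM from 5.94, 4.16 and 4.997 FPKM in DMSO, a ratio of means of 3.21 with no overlap. The change was 1.51 (SE 0.16, 95% interval 1.13 to 1.89, adjusted p = 5.61e-04). It was 2.36 for LMCD1-204 alone, the most abundant transcript by the mean over all 6 libraries. In DMSO the most abundant was LMCD1-201, with 36.7% of the level, so LMCD1-204 was chosen through its level in LBH589. Among the 5 listed transcripts of LMCD1, LMCD1-204 rose from 0.374, 0.365 and 0.848 FPKM to 7.24, 5.07 and 8.33 FPKM (adjusted p = 0.00392). Its part of the gene's level went from 10.5% to 42.6%. The longest, LMCD1-201, read 2.02, 1.81 and 1.71 FPKM and then 2.01, 3.21 and 3.56 FPKM, which missed the threshold (adjusted p = 0.269). LMCD1-205 made up 24.2% of the level in DMSO and 19.8% in LBH589 and did not pass either (adjusted p = 0.0613).

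ID2 was already among the highest genes, at percentile 96.3, and rose further. Its DMSO libraries stood at 95.8, 89.2 and 66.1 FPKM and its LBH589 libraries at 272, 152 and 175 FPKM. LBH589 replicate 1 lay far above the other two, and all LBH589 libraries above all DMSO libraries. The change was 1.22 (SE 0.25, 95% interval 0.60 to 1.83, adjusted p = 0.00905). For its most abundant transcript alone it was 5.55 (adjusted p = 0.0324 over 11457 genes).

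The transcripts of ID2 were split differently between libraries. ID2-203 made up 84.5% of the DMSO level, with 92.3, 87.4 and 32.4 FPKM there and 85.7, 5.96 and 9.40 FPKM under LBH589. ID2-201, whose start lies 3138 bases from that of ID2-203, had 0.00400, 0.00589 and 29.7 FPKM under DMSO and 167, 129 and 145 FPKM under LBH589. ID2-201 thus also had a value well above 0 in DMSO replicate 3, and ID2-203 stood at the level of DMSO in LBH589 replicate 1. Here and in the other genes, use of a form and assignment of fragments between forms cannot be told apart from these values. ID2-201 and ID2-203 did not pass in limma over 27042 single transcripts (adjusted p = 0.0528 for ID2-201 and 0.315 for ID2-203). There ID2-202 rose from 3.47, 1.80 and 4.07 FPKM to 18.9, 17.6 and 20.9 FPKM (adjusted p = 0.00447).

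SATB1 fell by a small amount. It had 3.26, 2.84 and 3.24 FPKM in DMSO and 2.03, 2.27 and 1.71 FPKM in LBH589, with no overlap. The change was -0.46 (SE 0.13, 95% interval -0.78 to -0.13, adjusted p = 0.0319). This call ended without any 1 of the 6 libraries (adjusted p from 0.0519 to 0.101), with library sums made equal (0.097), in the fit of most abundant transcripts (0.0633) and with the replicate number as a block (0.0951). SATB1-201 is its 1 listed transcript, and the gene shares 211 exon bases with TBC1D5 on the same strand in GENCODE 29. TBC1D5, a protein of endosomal transport, had 3.09 ± 0.334 FPKM in DMSO and 3.85 ± 0.414 FPKM in LBH589 (SD, n = 3, limma adjusted p = 0.189).

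MTUS1 was lower in every LBH589 library than in any DMSO library but did not pass. DMSO replicates had 29.9, 45.4 and 37.1 FPKM and LBH589 replicates 27.0, 9.17 and 18.8 FPKM. The change was -1.09 (SE 0.38, 95% interval -2.02 to -0.16, adjusted p = 0.056), and without LBH589 replicate 1 it passed (-1.42, adjusted p = 0.0241). In the other 15 of 16 alternatives it did not pass. The change was -0.69 without LBH589 replicate 2 (adjusted p = 0.0763) and -0.52 with the most abundant transcript (adjusted p = 0.789). The replicates differed in which transcript carried the level. MTUS1-201 had 24.0, 0.0707 and 30.7 FPKM under DMSO and 2.86, 0.0798 and 17.4 FPKM under LBH589, and MTUS1-202 had 3.41, 40.6 and 5.14 FPKM and then 24.0, 6.82 and 0.967 FPKM. In each of the 6 libraries 1 of these forms was high and the other low. MTUS1 shares 277 exon bases with PDGFRL on the other strand, which rose from 1.24, 1.03 and 0.884 FPKM to 5.31, 5.84 and 5.64 FPKM (change 1.69, adjusted p = 1.70e-04).

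FXR1 and LTA4H did not pass, and their groups overlapped. FXR1, the highest of the 10 genes in DMSO, read 83.0, 128 and 129 FPKM there and 111, 85.5 and 126 FPKM in LBH589. Its change was -0.07 with a 95% interval of -0.62 to 0.49 (adjusted p = 0.835). LTA4H read 20.3, 14.001 and 35.2 FPKM and then 25.9, 26.6 and 21.0 FPKM, with a change of 0.17 and a wide 95% interval of -0.61 to 0.95 (adjusted p = 0.697). DMSO replicate 3 was the highest library of LTA4H, and its level there was nearly all LTA4H-201, at 34.8 FPKM. That transcript had 0.0945 and 0.137 FPKM in the other DMSO libraries and 1.63, 1.44 and 2.43 FPKM in LBH589, where LTA4H-202 made up 92.1% of the level. The 11 listed transcripts of FXR1 likewise changed places. FXR1-207 had 21.6, 27.3 and 21.5 FPKM in DMSO and was listed at 0 in LBH589 replicates 1 and 2 but had 40.3 FPKM in replicate 3. FXR1-216 had 1.37, 40.9 and 36.5 FPKM and then 37.4, 0.538 and 38.5 FPKM, FXR1-214 went from 8.50% to 29.9% of the level, and of the 11 transcripts 0 passed.

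**Figure D3:**
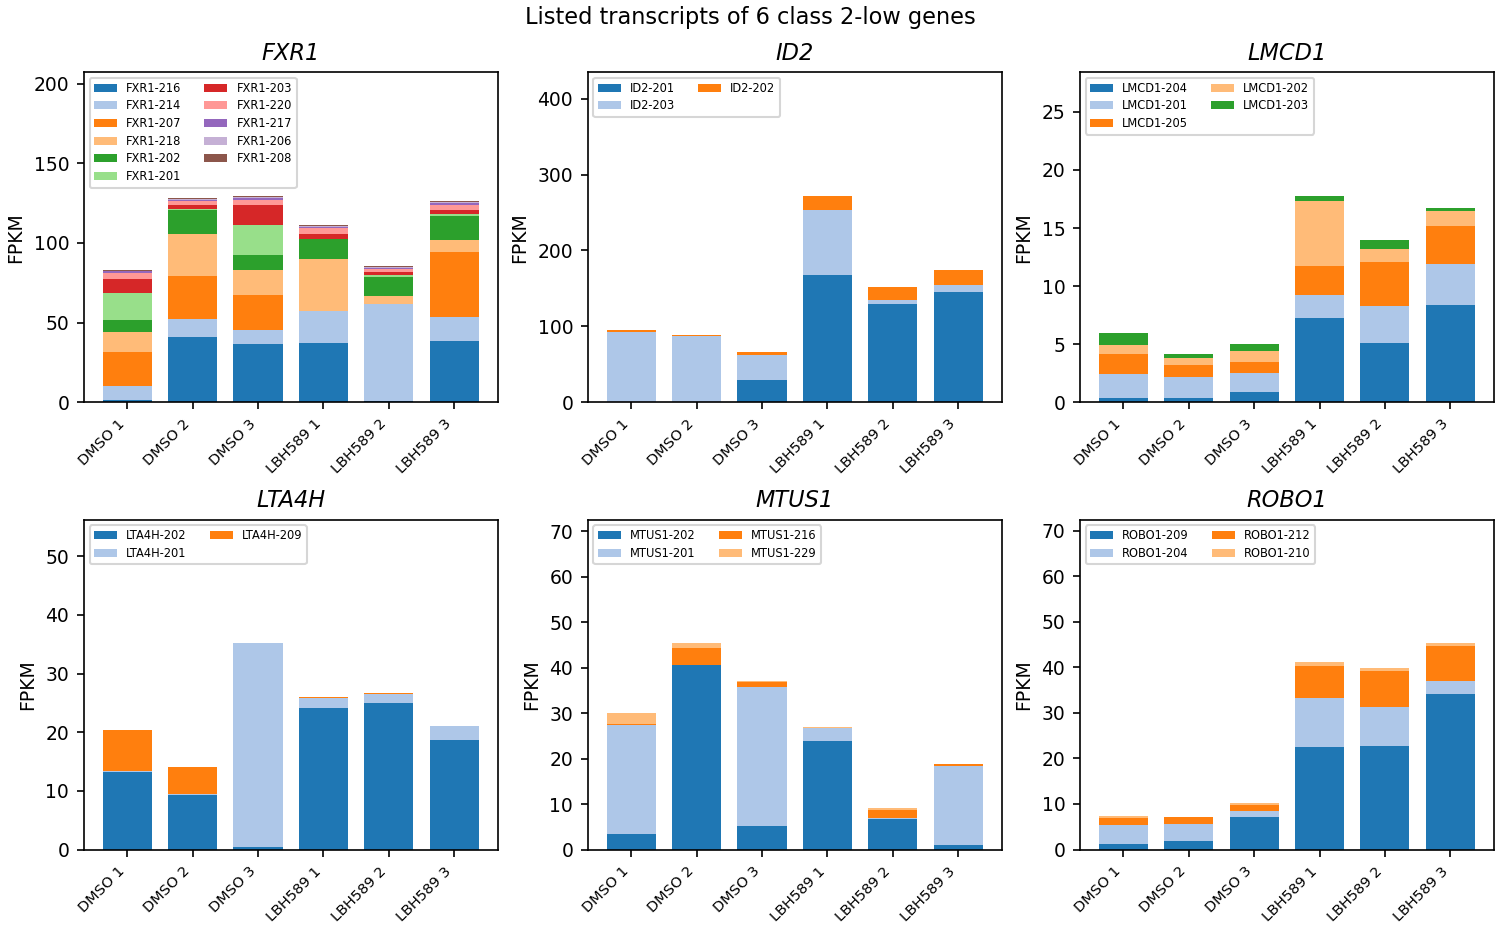
FPKM of each listed transcript, stacked by library, for the 6 genes lower in class 2 that have more than 1 listed transcript (3 DMSO and 3 LBH589 libraries, 1 bar each). The bars of ID2, LMCD1 and ROBO1 are taller in all LBH589 libraries, and the colours within FXR1, LTA4H and MTUS1 change between libraries of the same group.

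FPKM is scaled by transcript length, so the levels of the 10 genes can be put in order. In DMSO the order of mean FPKM was FXR1, ID2, MTUS1, HTR2B, LTA4H, ROBO1, RAB31, LMCD1, SATB1 and ECM1. Neighbours whose libraries overlapped there were FXR1 and ID2, MTUS1 and HTR2B, HTR2B and LTA4H, and RAB31 and LMCD1. In LBH589 the order was ID2, FXR1, ROBO1, LTA4H, MTUS1, LMCD1, RAB31, ECM1, SATB1 and HTR2B. Overlaps there were between LTA4H and MTUS1, MTUS1 and LMCD1, and RAB31 and ECM1. ROBO1 moved from place 6 to place 3 and HTR2B from place 4 to place 10.

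The mean log2(FPKM + 1) of the 3 genes higher in class 2 minus that of the 7 lower ones was -1.77, -1.63 and -1.92 in the DMSO replicates and -3.70, -3.36 and -3.18 in the LBH589 replicates. Every LBH589 library was thus below every DMSO library on this difference of levels. Without HTR2B the difference was -2.95, -2.85 and -3.20 for DMSO and -3.02, -2.74 and -2.42 for LBH589, and the groups overlapped. These values describe the libraries and are not the clinical score.

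Of the classifier's remaining genes, EIF1B, a translation initiation factor, had 37.0 ± 4.66 FPKM in DMSO and 40.3 ± 2.11 FPKM in LBH589 (SD, n = 3, limma adjusted p = 0.41). The classifier scales its genes to 3 controls. MRPS21, a mitochondrial ribosomal protein, had 42.4 ± 3.90 and 37.7 ± 1.38 FPKM (adjusted p = 0.229), and RBM23, an RNA-binding protein, had 9.70 ± 2.36 and 8.63 ± 2.36 FPKM (adjusted p = 0.644). SAP130, a subunit of the SIN3 histone deacetylase complex, rose: its DMSO libraries had 9.83, 6.87 and 9.54 FPKM and its LBH589 libraries 16.1, 13.7 and 22.2 FPKM (change 0.90, SE 0.22, adjusted p = 0.0155). The most abundant transcript of SAP130 alone gave -0.20 (adjusted p = 0.844).

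Promoter sequence is shown for the 4 genes that rose, to let their starts be compared. RefSeq promoter windows were found for 8 of the 10 genes, all but HTR2B and MTUS1. The 250 bases before the RefSeq start are given 5′ to 3′ on the gene's strand, from GRCh38.p14, a later build than the hg19 named for the deposited files. Capitals mark matches, on either strand, to any of 6 motifs that are spelled out after the sequences. The windows are chr1:150507859-150508108 (+) for ECM1, chr2:8681806-8682055 (+) for ID2, chr3:8501573-8501822 (+) for LMCD1 and, of 2 windows of ROBO1, the one at its listed transcripts, chr3:79019460-79019709 (-).
ECM1: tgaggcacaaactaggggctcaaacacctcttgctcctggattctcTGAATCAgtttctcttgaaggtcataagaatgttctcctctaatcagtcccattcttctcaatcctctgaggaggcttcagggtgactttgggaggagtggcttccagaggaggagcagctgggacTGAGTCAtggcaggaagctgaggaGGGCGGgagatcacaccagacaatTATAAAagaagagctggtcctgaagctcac
ID2: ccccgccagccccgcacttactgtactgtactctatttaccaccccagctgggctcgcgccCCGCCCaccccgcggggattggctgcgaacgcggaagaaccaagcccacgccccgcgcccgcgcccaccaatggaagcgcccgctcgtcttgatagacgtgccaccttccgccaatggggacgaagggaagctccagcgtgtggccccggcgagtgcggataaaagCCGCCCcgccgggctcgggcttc
LMCD1: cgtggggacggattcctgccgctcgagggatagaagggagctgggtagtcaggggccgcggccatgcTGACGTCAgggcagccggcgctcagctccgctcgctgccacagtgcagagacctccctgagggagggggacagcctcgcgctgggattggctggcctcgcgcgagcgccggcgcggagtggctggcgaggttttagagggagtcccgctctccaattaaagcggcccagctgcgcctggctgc
ROBO1: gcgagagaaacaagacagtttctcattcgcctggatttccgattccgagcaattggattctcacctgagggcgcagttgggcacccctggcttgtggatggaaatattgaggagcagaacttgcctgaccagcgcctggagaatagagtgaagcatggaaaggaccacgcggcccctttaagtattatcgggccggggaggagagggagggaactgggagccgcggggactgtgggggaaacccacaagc

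The E-box CACGTG was in 6.34% of all 35116 promoter windows of this length, and its variant CATGTG in 9.42%. The GC box GGGCGG was in 42.6%, the TATA box TATAAA in 10.7%, the AP-1 site TGANTCA in 6.57% and the cyclic AMP response element TGACGTCA in 1.65%. Counted from the RefSeq start, ECM1 held the AP-1 site at -204 and -78, the GC box at -54 and the TATA box at -30. ID2 held the GC box on the other strand at -189 and -23, and LMCD1 held the cyclic AMP response element at -183. The ROBO1 window held 0 of the 6, so no motif of this set was in all 4 windows, and the GC box of ECM1 and ID2 is also the most common one. The ROBO1 window ends where ROBO1-212 starts and the ID2 window where ID2-202 starts. The LMCD1 window ends where LMCD1-203 starts, which went from 12.9% to 2.96% of the LMCD1 level and did not pass (limma over single transcripts, adjusted p = 0.723). ECM1-202, the listed transcript of ECM1, starts at -24 from the RefSeq start, inside the window shown. The start of ID2-201, which made up 73.5% of the ID2 level in LBH589, lies 3211 bases from that of ID2-202 and outside the window shown.

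Genes known to work with the 10 were read from lists made by function. Together the 11 lists, which include EIF1B and the control genes, hold 82 genes, of which 49 could be tested. Of these 19 rose and 10 fell, 59.2% against 48.8% of all tested genes, with a median change of 0.26 against 0.08. The lists were chosen with earlier results of these data known, so the higher share and median are no evidence about the related genes. LAMB3, GATA6 and RIN3, which are among these calls, have a mean under 0.5 FPKM in one group and reached the level tested only through the group in which they are high.

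**Figure D4:**
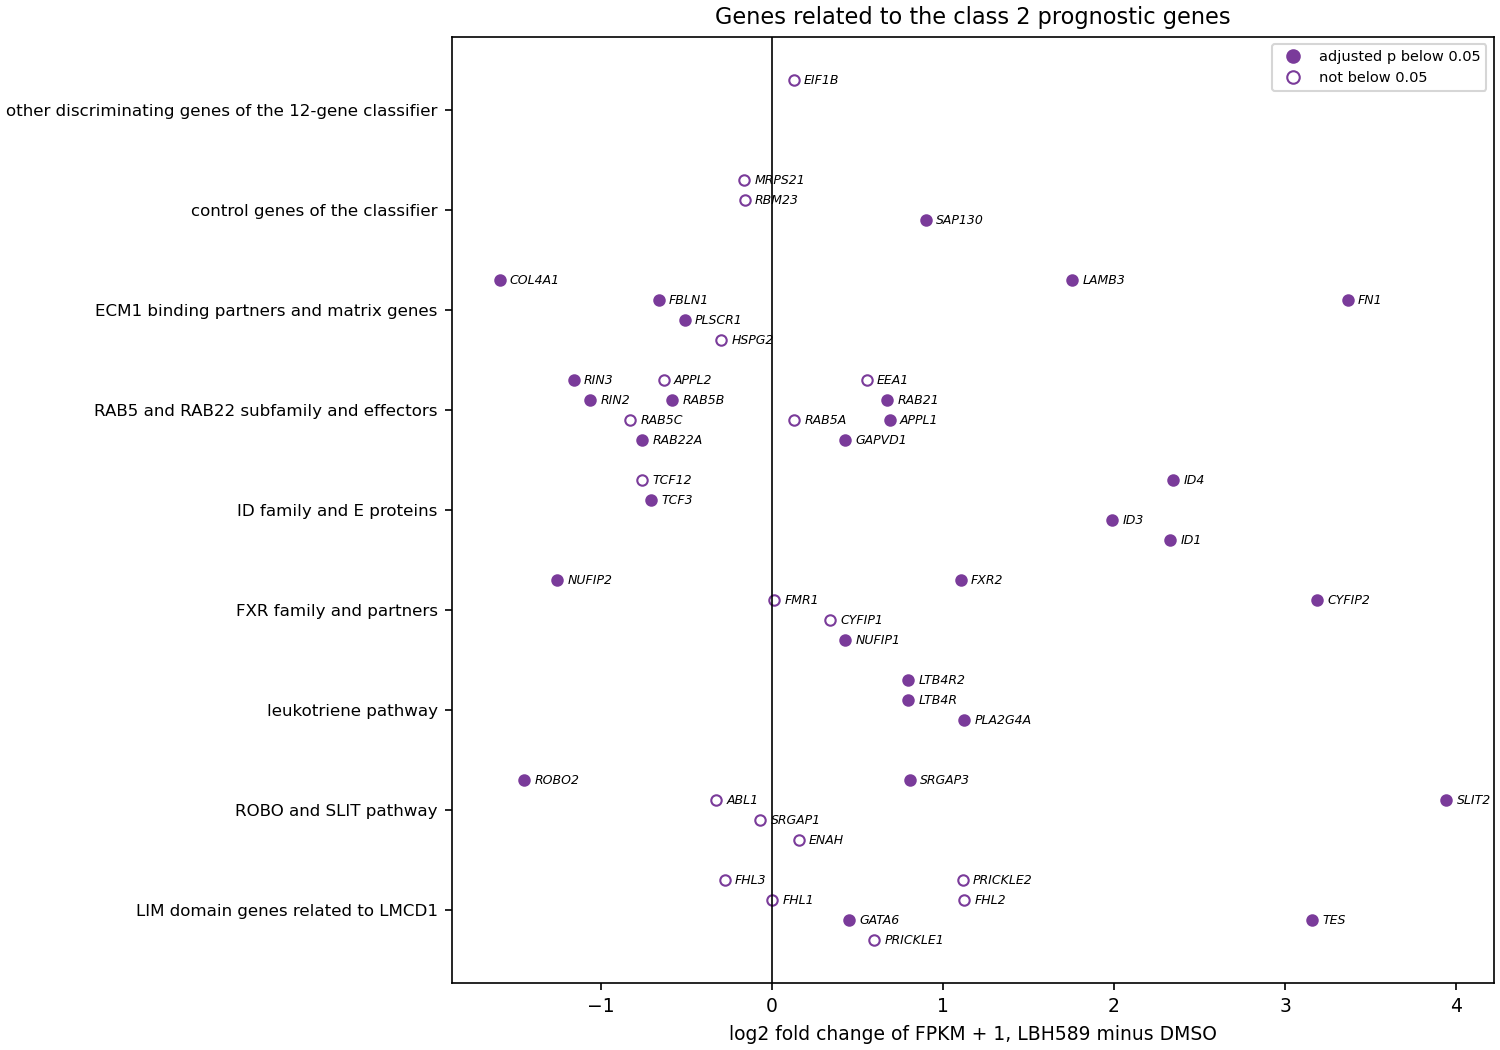
Change in log2(FPKM + 1), LBH589 minus DMSO, of most tested genes related to the 10, by list. Filled points passed limma at adjusted p below 0.05. ID1, ID3 and ID4 lie between 1.99 and 2.35, and SLIT2 at 3.94.

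The other ID genes that were measured rose as ID2 did. Of the 5 tested genes of the ID and E protein list 3 rose and 1 fell (median 1.99). ID4 had 40.8, 41.0 and 45.2 FPKM under DMSO and 209, 226 and 222 FPKM under LBH589 (change 2.35, adjusted p = 2.43e-05). ID1 went from 16.0, 11.8 and 8.68 FPKM to 62.0, 68.0 and 60.4 FPKM (2.33, adjusted p = 3.36e-04), and ID3 from 21.3, 13.9 and 7.71 FPKM to 47.7, 54.6 and 66.0 FPKM (1.99, adjusted p = 0.00438). For all 3 every LBH589 library lay above every DMSO library. The gene that fell was TCF3, an E protein that ID proteins bind, named after its value was seen, from 16.0 ± 2.02 to 9.37 ± 0.944 FPKM.

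The ROBO and SLIT genes did not share 1 direction: of 6 tested, 2 rose and 1 fell (median 0.04). SLIT2, a ligand of ROBO1, had 0.374, 1.95 and 1.70 FPKM under DMSO and 33.5, 32.1 and 33.8 FPKM under LBH589 (change 3.94, adjusted p = 1.75e-04). ROBO2, a related receptor, fell from 6.01, 9.63 and 13.4 FPKM to 3.20, 2.53 and 2.59 FPKM (-1.44, adjusted p = 0.00608), a call that ended when only its most abundant transcript was used (adjusted p = 0.315). SRGAP3, a GTPase-activating protein that binds ROBO receptors, rose from 0.753 ± 0.0320 to 2.07 ± 0.127 FPKM.

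Around ECM1, 2 of 6 tested matrix genes and partners rose and 3 fell (median -0.40). FN1 (fibronectin) rose from 6.70, 4.54 and 3.48 FPKM to 65.3, 52.5 and 58.0 FPKM (change 3.37, adjusted p = 9.71e-05). LAMB3, a laminin chain, had 0.00296 FPKM in DMSO replicate 1, was listed at 0 in DMSO replicates 2 and 3, and rose to 1.77, 2.90 and 2.59 FPKM in LBH589. COL4A1, a basement membrane collagen, fell from 10.6 ± 0.690 to 2.86 ± 0.147 FPKM.

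The list made for LMCD1, LIM domain genes and GATA6, had 2 rises and 0 falls among 7 tested genes (median 0.60). TES, a LIM protein of focal adhesions, rose from 6.96, 5.73 and 7.63 FPKM to 63.4, 69.3 and 71.5 FPKM (change 3.16, adjusted p = 2.46e-05). GATA6, a transcription factor that LMCD1 is known to hold back, rose from 0.496 ± 0.0978 to 1.05 ± 0.174 FPKM (adjusted p = 0.0252). Its call ended with quantile normalization (0.302), with the replicate block (0.0625) and without any 1 of DMSO replicates 2 and 3 and LBH589 replicates 1 and 2 (adjusted p from 0.0598 to 0.0749). FHL2, a LIM cofactor, had 1.87 and 0.110 FPKM in DMSO replicates 1 and 2, was listed at 0 in replicate 3, and had 1.98, 2.04 and 2.65 FPKM in LBH589 (adjusted p = 0.066). It passed without DMSO replicate 1 (1.61, adjusted p = 0.00128).

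Near FXR1, LTA4H and RAB31, which did not pass, some related genes did. Of 6 genes of the FXR list 3 rose and 1 fell (median 0.39). CYFIP2, a WAVE complex subunit, rose from 0.816 ± 0.584 to 14.9 ± 0.871 FPKM and FXR2, a paralog of FXR1, from 9.40 ± 2.18 to 21.1 ± 1.92 FPKM. NUFIP2, an RNA-binding partner, fell from 35.6 ± 6.79 to 14.1 ± 0.700 FPKM.

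Of 10 leukotriene genes 3 could be tested, and these rose (median 0.80). PLA2G4A, the phospholipase that frees arachidonic acid, went from 5.40 ± 0.430 to 13.0 ± 1.02 FPKM, and LTB4R, a leukotriene B4 receptor, from 1.99 ± 0.116 to 4.20 ± 0.378 FPKM. LTB4R2, a further receptor, had 1.16, 0.522 and 0.229 FPKM and then 1.73, 1.69 and 1.88 FPKM (adjusted p = 0.0253). Its call ended with the replicate block (0.0521) and without any 1 library other than DMSO replicate 1 (adjusted p from 0.05 to 0.0747).

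Of 11 tested RAB5 and RAB22 relatives and effectors 3 rose and 4 fell (median -0.58). RAB21 rose from 6.15 ± 0.702 to 10.4 ± 0.164 FPKM, and APPL1, a RAB5 effector, rose from 9.27 ± 1.59 to 15.4 ± 0.478 FPKM. RIN3, an exchange factor for this subfamily, fell from 2.06 ± 0.922 to 0.333 ± 0.0323 FPKM, a call that ended with the most abundant transcript (adjusted p = 0.0767).

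**Figure D5:**
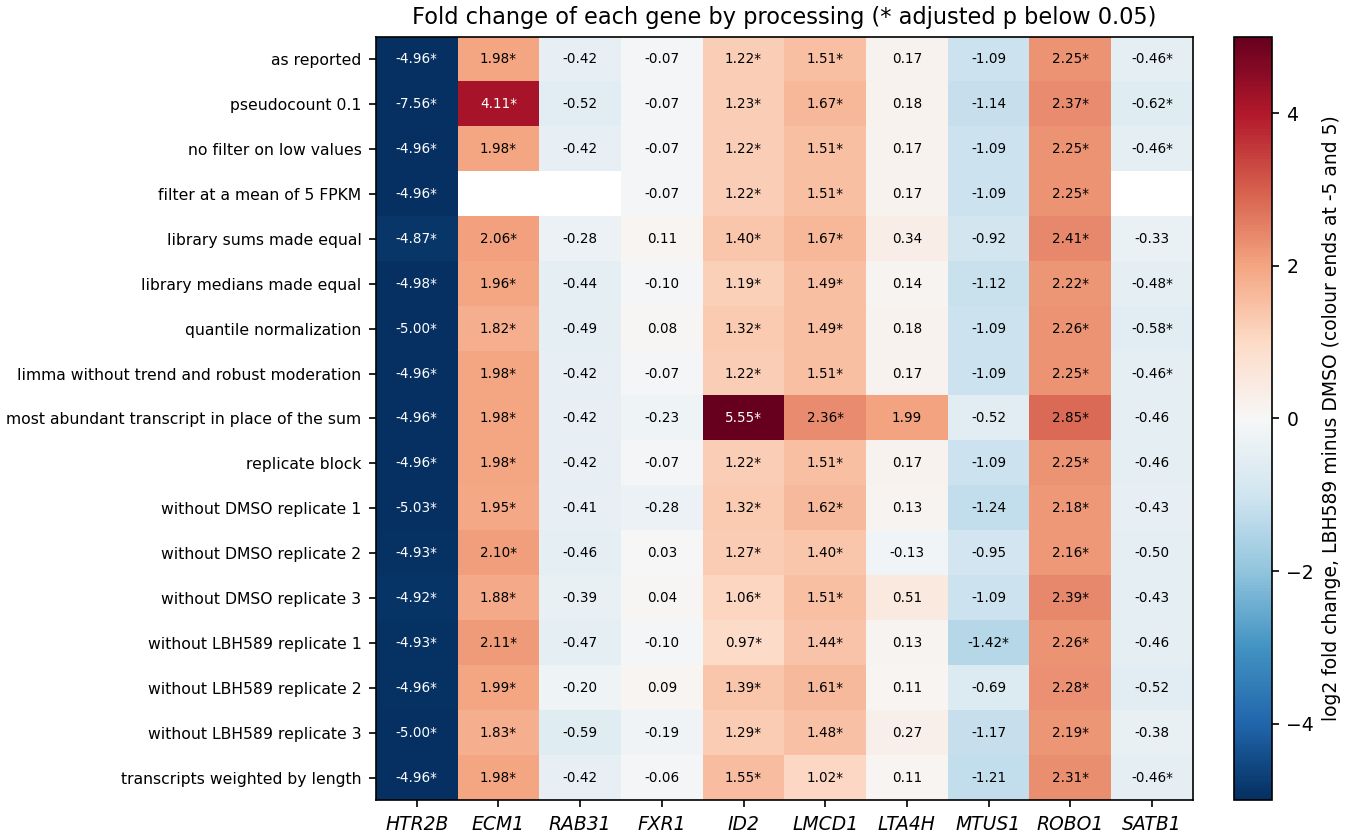
Change in log2(FPKM + 1) of each of the 10 genes under each way of processing, LBH589 minus DMSO, with an asterisk at adjusted p below 0.05 and blanks where a gene was not tested. HTR2B, ECM1, ID2, LMCD1 and ROBO1 carry the asterisk wherever they were tested, and SATB1 loses it in 9 of 15 alternatives.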

How the data were processed

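The authors deposited 1 table per library with an FPKM value for each of 30624 transcripts, per the file headers. The sources used here do not give the quantification tool, annotation release, transcript filter or strand setting. Fragments from bases that genes on opposite strands share thus cannot be assigned to either. Besides HTR2B and MTUS1, LTA4H shares such exon bases in GENCODE 29, with AC007298.2 (582) and AC007298.1 (121). LMCD1 shares them with AC034187.1 (149) and ID2 with ID2-AS1 (38). AC007298.1, AC007298.2, AC034187.1 and ID2-AS1 had no values here. The submitters' processing notes name Bowtie 0.12.2 and hg19 but no role for either. The lowest value of a transcript's higher group mean was 0.500 FPKM. Transcript identifiers were matched to GENCODE 29 (99.6% found) and FPKM was added up per gene.

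Testing used limma 3.58.1 (R 4.3.3, trend and robust moderation, treatment as the only term) on log2(FPKM + 1) for the 11520 genes whose mean over all libraries reached 0.5 FPKM, and likewise for single transcripts. The procedure was also run on simulated data, drawn independently for each gene and with a small part of the genes changed. In the real data 48.8% of tested genes passed, so that run does not check the calls given here. Alternatives were another pseudocount (0.1), filter (none, 5 FPKM), scaling, moderation, transcript choice, a replicate block and leaving out each library. The most abundant transcript of a gene was the one with the highest mean FPKM over all 6 libraries. A transcript can thus be chosen through the group in which it is high, and its change is then no independent check. The rule named the 10 genes, the other classifier genes, up to 3 tested genes per list with the smallest adjusted p, and 3 genes most like HTR2B. Genes and lists were chosen with earlier results of these data known. Some genes of the lists are not reported here, though the counts over lists include them.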

Additional observations from a re-analysis of the deposited data

How the results depend on the processing

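The rises of ECM1, ID2, LMCD1 and ROBO1 and the fall of HTR2B passed in every alternative that tested them. For ID2 the alternative with the most abundant transcript rests on ID2-201, which did not pass in limma over single transcripts (adjusted p = 0.0528). Among the 10 genes rises numbered 4 in each alternative except for 3 at a mean of at least 5 FPKM, where ECM1, RAB31 and SATB1 were not tested. Falls numbered 1 in place of 2 at that filter, with library sums made equal, with the most abundant transcript and with the replicate block, in each case without SATB1. They numbered 1 to 2 when 1 library was left out, and the 2 without LBH589 replicate 1 were HTR2B and MTUS1. Changes ranged from -7.56 (pseudocount 0.1) to -4.87 for HTR2B, from 1.82 to 4.11 (pseudocount 0.1) for ECM1, from 0.97 to 5.55 (most abundant transcript) for ID2, from 1.02 (transcripts weighted by length, chosen after seeing the data) to 2.36 (most abundant transcript) for LMCD1, and from 2.16 to 2.85 for ROBO1. FXR1 lay between -0.28 and 0.11 and LTA4H between -0.13 and 1.99, with sign changes and no call. SAP130 turned to -0.20 with the most abundant transcript, and the cause was not tested. Over all genes, 1844 of 6866 tested rose at a mean of at least 5 FPKM, against 3132 of 11520 tested in the main fit. The lower count is thus out of fewer genes. Equal library sums gave 3749 rises and 2001 falls and moved the median of all genes from 0.08 to 0.23. Same-numbered libraries did not deviate together (correlations across genes -0.104, 0.0215 and -0.035), so the numbers were not taken as pairs, and the replicate block gave 2617 rises and 2172 falls against 3132 and 2485. Depth is unknown, so values near 0 carry no counting interval.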

Other observations

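Adding up transcripts weighted by their length, a setting chosen after seeing the data, gives a level in which long forms count for more. ID2 then had 76.1, 71.6 and 63.8 in the DMSO replicates and 279.5, 168 and 191 in the LBH589 replicates, on a scale like FPKM, and its change was 1.55. LMCD1 had 7.37, 6.21 and 6.34 and then 13.3, 13.99 and 16.3, with a smaller change of 1.02 that still passed. MTUS1 had 34.4, 35.3 and 44.5 and then 22.5, 7.13 and 23.5 (-1.21) and did not pass, with no overlap between the groups. ROBO1 had a change of 2.31.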
